A study of Arabidopsis thaliana with 6 samples.

Results

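Jacalin-related lectins are sugar-binding proteins built from copies of a jacalin-like fold, and the Arabidopsis genome holds a large family of them under the name JAL. The genes described here are the 31 rows of the expression table whose name is JAL followed by a number, out of 32948 rows, with AT3G16420 (PBP1), AT3G16450 (JAL33) and AT3G16460 (JAL34) left out. Of these 31 genes, 30 carry the jacalin-like lectin domain in the deposited annotation, JAL25 being the exception, and 2 (JAL37 and JAL38) also carry an F-box or F-box associated domain. The rule for this choice uses only names, but it was set with earlier results of these data known.

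The samples were wild-type (WT) Arabidopsis thaliana seedlings, all labelled 6 h: 3 libraries on MS plant culture medium with 20 mM yttrium oxide nanoparticles, an oxide of a rare-earth metal, and 3 libraries on MS medium alone. The labels give no age, pooling or organ, and they do not tell whether the libraries of a group are separate cultures. All p-values therefore measure spread among these 6 samples alone, and that spread may be technical. Values are FPKM, fragments scaled to gene length and to the size of the library, so levels can be set side by side between genes. Libraries held 19314683 to 23374306 recovered reads. Treated library 2 stood apart from treated libraries 1 and 3 on the second principal component of all tested genes (-29.8, against 13.2 and 7.23), and each of the 7 genes called below also passed without it.

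In plants, jacalin-related lectins are known mainly as partners of other proteins in defence. Several bind myrosinases or the root beta-glucosidase PYK10 (BGLU23), enzymes that release toxic products from stored glucosides when a cell is broken, and so form large protein complexes in damaged tissue. PYK10 itself is stored in ER bodies, spindle-shaped compartments of the endoplasmic reticulum that are common in roots and seedlings of the cabbage family. JAL22, JAL23 and JAL35 have been described as components of the PYK10 complex, and JAL35 is also known as JR1, a jasmonate-responsive gene.

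Near copies whose values differ, or fell together, are shown first. JAL8, JAL9 and JAL10 lie next to each other on chromosome 1, and the 3 lines below hold the first 120 coding bases of each, from the RefSeq annotation of TAIR10.1, with capitals where JAL9 or JAL8 differs from JAL10.
JAL10: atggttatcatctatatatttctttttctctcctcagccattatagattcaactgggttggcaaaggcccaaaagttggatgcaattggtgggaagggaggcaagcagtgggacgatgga
JAL9: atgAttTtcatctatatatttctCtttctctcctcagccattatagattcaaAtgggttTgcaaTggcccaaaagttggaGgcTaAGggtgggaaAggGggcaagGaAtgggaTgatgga
JAL8: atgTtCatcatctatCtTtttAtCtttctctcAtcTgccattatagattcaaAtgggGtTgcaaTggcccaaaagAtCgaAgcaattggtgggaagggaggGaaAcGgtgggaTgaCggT
In this stretch 15 bases of JAL9 and 21 of JAL8 differ from JAL10. Over the whole coding sequence 85.6% of the bases of JAL9 and 78.3% of those of JAL8 match JAL10. Even so, only 0.306% of the 50-base stretches of the JAL9 transcript, 0.319% of those of JAL10 and 0% of those of JAL8 occur anywhere else in the 5 chromosomes, so few exact stretches of that length are shared between the copies.

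JAL22 and JAL23 are neighbours on chromosome 2, and 86.7% of the shorter coding sequence is identical. They are shown because their levels differ greatly. The lines hold coding bases 1 to 120 of JAL22 and the matching bases 145 to 264 of JAL23, with the 14 differing bases of JAL23 in capitals.
JAL22: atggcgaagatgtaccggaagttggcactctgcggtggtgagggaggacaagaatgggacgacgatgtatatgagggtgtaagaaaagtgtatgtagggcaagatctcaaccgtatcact
JAL23: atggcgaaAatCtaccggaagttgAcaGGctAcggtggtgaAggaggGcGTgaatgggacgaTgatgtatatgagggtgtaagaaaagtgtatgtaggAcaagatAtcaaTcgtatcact
JAL41 and JAL42 are neighbours on chromosome 5 with 88.1% identity, again at very different levels. The lines hold their first 120 coding bases, with the 14 differing bases of JAL42 in capitals.
JAL41: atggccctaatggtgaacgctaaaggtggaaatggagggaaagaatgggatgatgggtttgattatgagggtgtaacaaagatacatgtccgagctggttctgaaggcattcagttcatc
JAL42: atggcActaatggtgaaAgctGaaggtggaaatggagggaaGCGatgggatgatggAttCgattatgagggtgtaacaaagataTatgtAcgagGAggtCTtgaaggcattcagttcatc

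Treated seedlings had less JAL transcript in total than control seedlings. The summed level of the 31 genes was 111, 90.7 and 114 FPKM in treated libraries 1, 2 and 3, against 206, 184 and 208 FPKM in control libraries 1, 2 and 3. The treated mean, 105 ± 12.8 FPKM, was 52.8% of the control mean of 199.5 ± 13.5 FPKM (SD, n = 3 each), and the groups did not overlap. JAL22 and JAL35 together made up 57.4% to 59.4% of this sum in treated libraries and 61.1% to 64.0% in control libraries. Because the RNA came from seedlings and not from sorted cells, fewer cells of a type that makes a transcript and less of that transcript per cell cannot be told apart.

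**Figure D1:**
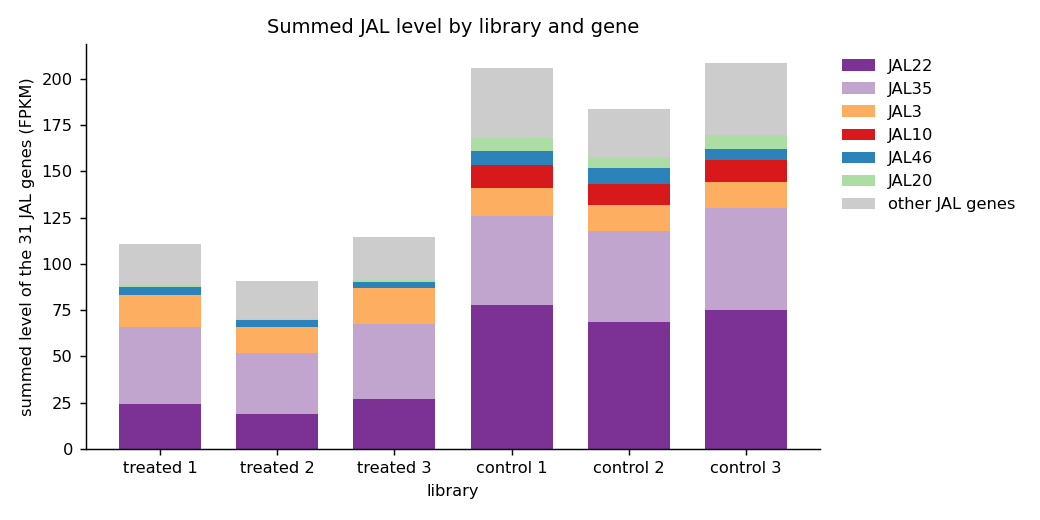
Summed FPKM of the 31 JAL genes (y axis) in each library (x axis), with treated libraries on the left and control libraries on the right, divided by gene. The treated bars reach 90.7 to 114 FPKM and the control bars 184 to 208 FPKM, and the JAL10 segment is visible only in control libraries.

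A test was possible for 14 of the 31 genes, those with a mean of at least 1 FPKM over the 6 libraries. By limma on log2(FPKM + 1), with Benjamini-Hochberg adjusted p under 0.05 over all 18614 genes tested as the threshold, 7 of the 14 fell in treated seedlings, 0 rose and 7 did not pass. Among all genes tested 14.5% passed, 6.41% lower and 8.07% higher. At an unadjusted p under 0.05, 8 of the 14 were lower, against 13.7% of all genes tested. For rises, 1 of the 14 genes (JAL5) had an unadjusted p under 0.05, against 16.1% of all genes. On the recovered reads edgeR called 7 of the 14 lower and 0 higher (7.11% and 8.7% of all genes), and DESeq2 called 9 lower and 0 higher (8.36% and 11.1%). With no filter on low values limma called 9 of 25 lower (5.59% of all genes), and with a mean of at least 5 FPKM 3 of 7 (5.04%). The median change of the 14 was -0.64 on the log2(FPKM + 1) scale, against 0.00087 over all genes tested. JAL9, which had no treated reads, lies far below this median, so its exact value does not bear on it. The groups did not overlap for 8 of the 14, all lower in treated seedlings, where 16.7% of all genes tested were wholly lower and 19% wholly higher. Of the 14 genes 5 had a treated mean under 1 FPKM and passed the filter through their control values, 4 of them among the 7 called, and for these the filter itself favours a lower treated value. In the authors' deposited table of changed genes, 9 of the 31 are listed, all lower in treated seedlings, while 6.39% of all genes are listed there, 3.21% as lower. Every gene listed there has an adjusted p under 0.05 and also a log2 change of more than 1 in size, so these shares are not counts at adjusted p alone.

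**Figure D2:**
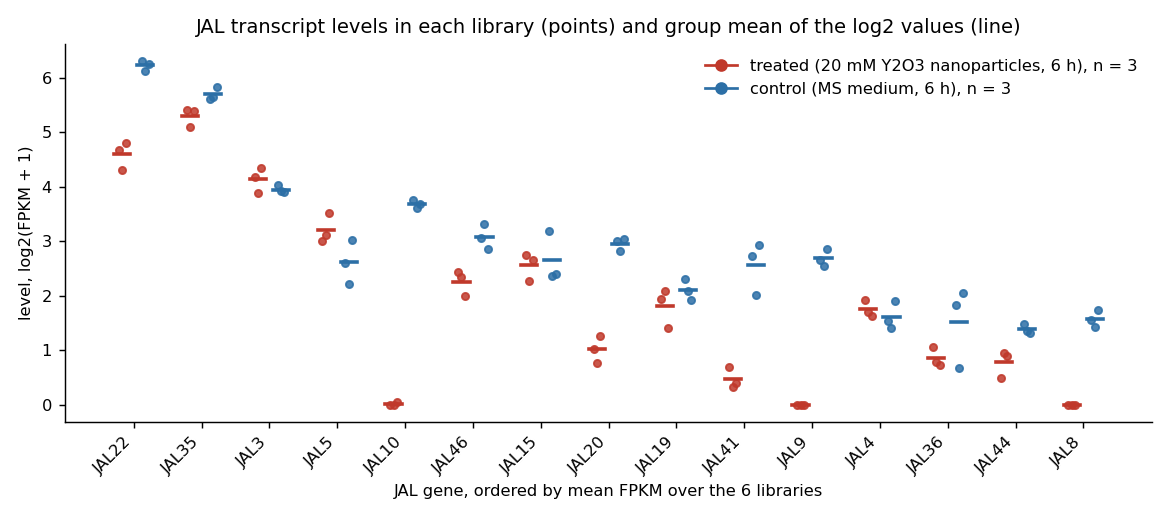
Level of the 14 tested genes and of JAL8 in each library, as log2(FPKM + 1) on the y axis, with genes on the x axis in order of mean FPKM. Points are libraries and lines are group means, treated left of control. JAL8, JAL9 and JAL10 sit at or next to 0 in all treated libraries.

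Of the 3 genes among the 31 named above as parts of the PYK10 complex, JAL22 fell past the threshold, JAL35 did not pass and JAL23 was too low to test. JAL22 (AT2G39310, chromosome 2, 16414034 to 16416845, TAIR10) had 24.5, 18.7 and 26.9 FPKM in treated libraries 1, 2 and 3, against 77.8, 68.5 and 75.0 FPKM in control libraries 1, 2 and 3. Every treated library lay below every control library. The mean of 23.4 ± 4.20 FPKM in treated seedlings was 3.16-fold lower than that of 73.8 ± 4.77 FPKM in control seedlings (log2 change -1.63, SE 0.144, limma adjusted p = 0.000208). Among the 31 genes, JAL22 had the highest mean in control libraries and the second highest, after JAL35, in treated ones. Its near copy JAL23 (AT2G39330) stayed below the filter, with 1.04, 0.570 and 1.05 FPKM in treated libraries and 0.898, 0.300 and 0.856 FPKM in control libraries, and these ranges overlap.

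JAL35 (AT3G16470, chromosome 3, 5595282 to 5599224), the jasmonate-responsive member, had 41.5, 33.3 and 40.8 FPKM in treated libraries 1, 2 and 3, against 48.0, 49.2 and 55.5 FPKM in control libraries 1, 2 and 3. The groups did not overlap, but the log2 change of -0.40 (SE 0.123, 95% interval -0.68 to -0.12) missed the threshold by limma (adjusted p = 0.0670). DESeq2 on recovered reads put it past the threshold (adjusted p = 0.0264) and edgeR did not (adjusted p = 0.0524). JAL34, on the other strand, shares 631 bases with JAL35, 16.0% of the JAL35 span. Whether strand was used in the counting is not stated, so part of the JAL35 signal is uncertain. JAL34 itself had 33.9 ± 2.76 FPKM in treated seedlings and 129.6 ± 31.3 FPKM in control seedlings.

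The most complete loss was in the tandem array of chromosome 1. This array spans 69.7 kb and holds 6 of the 31 genes, JAL5, JAL8, JAL9, JAL10, JAL12 and JAL13, together with the myrosinase-binding protein genes MBP1 and MBP2 and other genes. JAL10 (AT1G52070, chromosome 1, 19364809 to 19366925) had 0, 0 and 0.0351 FPKM in treated libraries 1, 2 and 3, against 12.4, 11.2 and 11.8 FPKM in control libraries 1, 2 and 3. These values stand for 1 read in all treated libraries and 1098 in all control libraries, a ratio of 1094 after scaling to library size with a 95% exact binomial interval of 196 to 43246 that covers counting error only. By limma the log2 change was -3.66 (SE 0.124, adjusted p = 3.99e-06), a value that the pseudocount of 1 FPKM holds down.

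JAL9 (AT1G52060, chromosome 1, 19358800 to 19360822) had no reads in any treated library, against 5.32, 4.85 and 6.19 FPKM in control libraries 1, 2 and 3. The 472 control reads make the level at least 157-fold lower in treated seedlings, counting the 0 as up to 3 reads over the treated group. Its limma adjusted p was 1.71e-05, and its fitted log2 change of -2.68 (SE 0.140) depends on the pseudocount. JAL8 (AT1G52050, chromosome 1, 19354919 to 19356901) also had no treated reads, against 1.94, 1.67 and 2.35 FPKM in control libraries 1, 2 and 3. That is at least 54.1-fold lower by the same rule. With a mean of 0.993 FPKM it lay just under the filter and was not tested. With no filter on low values limma gave it an adjusted p of 0.000337, in a fit where 5.59% of 25437 genes were called lower.

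None of the other array genes that could be tested passed the threshold. JAL5 (AT1G52000, chromosome 1, 19333088 to 19336135), at the other end from JAL13, had 6.96, 7.64 and 10.4 FPKM in treated libraries 1, 2 and 3, against 5.09, 3.61 and 7.12 FPKM in control libraries 1, 2 and 3. The ranges overlap, since control library 3 exceeds treated library 1, and the log2 change of 0.59 (SE 0.225, 95% interval 0.08 to 1.11) fell short of it (limma adjusted p = 0.120). MBP2 (listed as F-ATMBP) and MBP1, which lie between JAL5 and JAL8, had log2 changes of 0.27 and 0.40 with limma adjusted p of 0.248 and 0.179. On the far side of JAL10, AT1G52080 (AR791) had 2.60 ± 0.240 FPKM in treated seedlings and 3.77 ± 0.460 FPKM in control seedlings (limma adjusted p = 0.0863), and the jacalin-domain gene AT1G52100 had 8.94 ± 4.46 FPKM in treated and 3.57 ± 1.59 FPKM in control seedlings (adjusted p = 0.143). JAL12 and JAL13 had at most 0.268 FPKM in any library. The fall in this array past the threshold or to 0 reads was thus seen in JAL8, JAL9 and JAL10, with protein-coding genes on both sides that did not pass. Of these, AT1G52080 still had treated values (2.35 to 2.83 FPKM) wholly below its control values (3.26 to 4.16 FPKM), as did 16.7% of all genes tested.

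**Figure D3:**
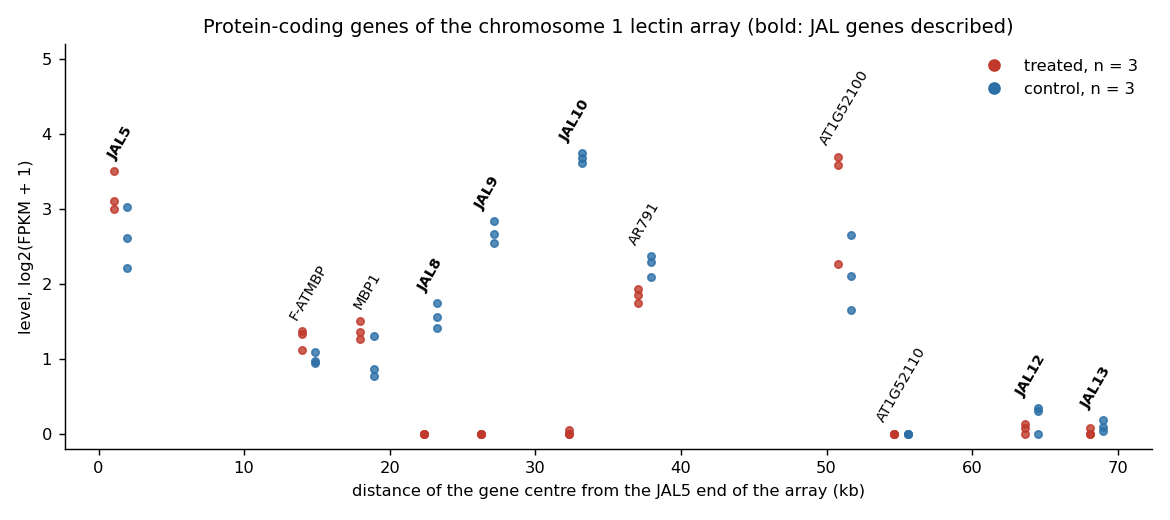
Level of the protein-coding genes of the chromosome 1 array, as log2(FPKM + 1) on the y axis, against their distance in kb from the JAL5 end on the x axis. Each point is 1 library, treated left of control. The treated points of JAL8, JAL9 and JAL10 lie at or next to 0 while their control points lie above 1.

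The regions before the starts of these 3 genes are shown because the genes moved together. Each line holds the 250 bases before the annotated start in TAIR10.1, written 5′ to 3′ on the gene's strand, with capitals for matches to the W-box cores TTGACC and TTGACT on either strand.
JAL8, chr1:19356902-19357151, minus strand: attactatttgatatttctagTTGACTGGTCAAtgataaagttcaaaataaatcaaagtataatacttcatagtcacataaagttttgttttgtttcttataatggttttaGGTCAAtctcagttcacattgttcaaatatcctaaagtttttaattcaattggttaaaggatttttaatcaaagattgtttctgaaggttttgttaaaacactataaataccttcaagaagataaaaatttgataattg
JAL9, chr1:19360823-19361072, minus strand: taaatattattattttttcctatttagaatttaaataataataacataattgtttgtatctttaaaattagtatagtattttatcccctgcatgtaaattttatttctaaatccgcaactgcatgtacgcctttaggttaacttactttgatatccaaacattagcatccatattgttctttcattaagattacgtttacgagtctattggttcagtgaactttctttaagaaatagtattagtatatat
JAL10, chr1:19366926-19367175, minus strand: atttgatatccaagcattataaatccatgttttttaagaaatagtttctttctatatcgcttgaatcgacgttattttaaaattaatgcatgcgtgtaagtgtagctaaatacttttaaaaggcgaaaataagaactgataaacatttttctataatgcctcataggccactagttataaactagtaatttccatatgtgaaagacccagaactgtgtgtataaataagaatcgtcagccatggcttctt
JAL8 has 3 W-box matches, 2 of which are directly adjacent, and JAL9 and JAL10 have 0. None of the 3 windows holds the G-box CACGTG or the P1BS letters GNATATNC on either strand. Across the 31 genes the W-box cores occurred in 7 windows (22.6%), against 28.4% of 27443 windows of protein-coding genes, P1BS in 1 window, that of JAL5 (3.23%, against 5.46%), and the G-box in 0 (against 6.49%). A match or its absence describes only the letters of this window. In pairwise alignments 46.8% to 54.8% of the window was identical among JAL8, JAL9 and JAL10, against up to 58.0% in the 12 other pairs among these genes, JAL20, JAL22 and JAL41. The likeness of the coding sequences is thus not seen in these windows.

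Of the remaining members that fell, the largest differences were those of JAL41 and JAL20. JAL41 (AT5G35940, chromosome 5, 14090574 to 14093007) had 0.606, 0.246 and 0.308 FPKM in treated libraries 1, 2 and 3, against 5.64, 3.05 and 6.65 FPKM in control libraries 1, 2 and 3. The mean was 13.2-fold lower in treated seedlings (log2 change -2.10, SE 0.242, limma adjusted p = 0.000904), with control library 2 the lowest of its group. Its near copy JAL42 had 0 to 0.115 FPKM in treated libraries and 0.0372 to 0.112 FPKM in control libraries, at most 3 reads in any library. JAL20 (AT2G25980, chromosome 2, 11077438 to 11079968), which has no neighbouring member, had 1.04, 0.687 and 1.40 FPKM in treated libraries 1, 2 and 3, against 7.02, 6.03 and 7.19 FPKM in control libraries 1, 2 and 3. Treated seedlings had a 6.49-fold lower mean (log2 change -1.94, SE 0.163, limma adjusted p = 0.000160).

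Smaller falls were found for JAL46 and JAL44. JAL46 (AT5G49850, chromosome 5, 20259440 to 20262585) had 4.40, 4.07 and 2.97 FPKM in treated libraries 1, 2 and 3, against 7.31, 8.98 and 6.20 FPKM in control libraries 1, 2 and 3. The treated mean was 1.97-fold lower (log2 change -0.82, SE 0.172, limma adjusted p = 0.0159), but did not pass without control library 1 (adjusted p = 0.0638) or control library 2 (0.0625). JAL46 is not in the authors' deposited table, which holds only log2 changes over 1 in size. DESeq2 on recovered reads gave JAL46 a log2 change of -0.98 (adjusted p = 0.000126). A gene on the other strand, AT5G49840, covers 17.3% of its span, with 7.54 ± 1.48 FPKM in treated seedlings and 5.72 ± 0.379 FPKM in control seedlings. JAL47 and JAL48 lie beside JAL46, and 88.0% and 86.2% of the shorter coding sequence matches it. JAL48 had 1 read in all treated libraries and 24 in all control libraries, a ratio of 23.9 with a 95% exact binomial interval of 3.90 to 983 that covers counting error only. It is listed as lower in the authors' deposited table (adjusted p = 0.0253). JAL47 had at most 3 reads in any library.

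JAL44 (AT5G38550, chromosome 5, 15432781 to 15435851) had 0.409, 0.935 and 0.846 FPKM in treated libraries 1, 2 and 3, against 1.77, 1.55 and 1.49 FPKM in control libraries 1, 2 and 3. The groups did not overlap and the mean was 2.20-fold lower in treated seedlings. The call was narrow (log2 change -0.60, SE 0.167, limma adjusted p = 0.0458). This call did not hold without treated library 1 (adjusted p = 0.117) or 3 (0.0721), and without control library 1 (0.150), 2 (0.109) or 3 (0.0946). Of its 50-base stretches 8.39% occur elsewhere in the genome, the highest share among the 31 genes, so some of its reads may have had more than 1 place to go.

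**Figure D4:**
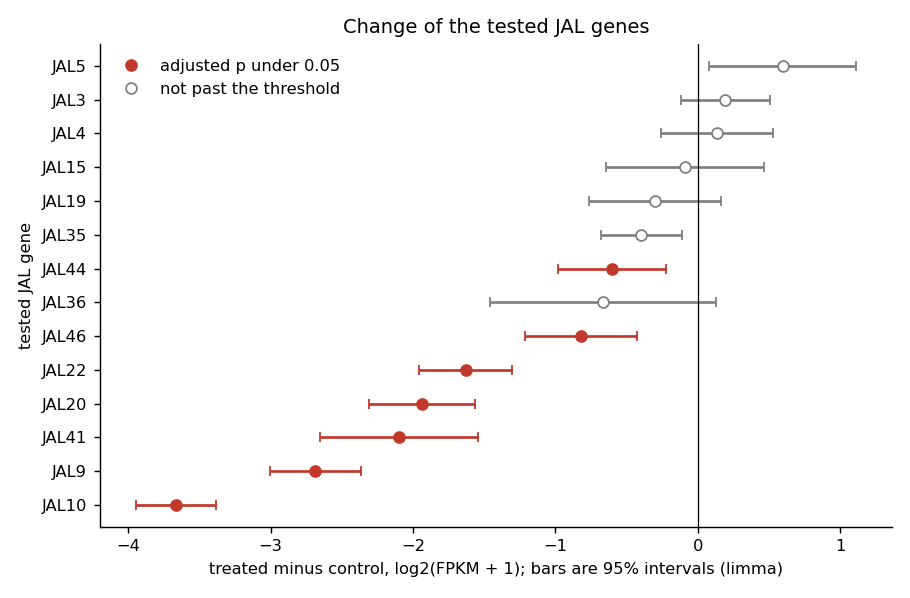
Change of the 14 tested genes, as the treated minus the control mean of log2(FPKM + 1) on the x axis, with 95% intervals from limma, ordered by size. Filled points passed the threshold. They run from -3.66 for JAL10 to -0.60 for JAL44, and JAL5 has the highest value at 0.59.

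The tested genes that did not pass were JAL3, JAL4, JAL5, JAL15, JAL19, JAL35 and JAL36, with log2 changes between -0.67 and 0.59. After JAL35, JAL3 (AT1G19715, chromosome 1, 6816702 to 6819542) was the most abundant of them. It had 17.1, 13.6 and 19.3 FPKM in treated libraries 1, 2 and 3, against 15.3, 14.05 and 13.8 FPKM in control libraries 1, 2 and 3. These ranges overlap, and the log2 change was 0.19 (SE 0.136, 95% interval -0.12 to 0.50, limma adjusted p = 0.390). A gene on the other strand covers 6.16% of its span, and likewise 6.98% of that of JAL19. JAL4, JAL15 and JAL19 had 2.36 ± 0.383, 4.93 ± 0.995 and 2.57 ± 0.833 FPKM in treated seedlings, and 2.09 ± 0.556, 5.47 ± 2.22 and 3.33 ± 0.590 FPKM in control seedlings, also with overlap. JAL36 depended on a single library. It had 1.07, 0.710 and 0.645 FPKM in treated libraries 1, 2 and 3, against 2.53, 0.597 and 3.14 FPKM in control libraries 1, 2 and 3. Without control library 2 its limma adjusted p was 0.0114, against 0.239 with all libraries. DESeq2 on recovered reads put it past the threshold (adjusted p = 0.0450), edgeR did not (0.127), and the authors' deposited table lists it as lower (adjusted p = 0.0498).

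The other 17 genes had mean levels under 1 FPKM. Of these 6, namely JAL24, JAL25, JAL37, JAL38, JAL39 and JAL45, are listed at 0 in every library, where a 0 allows up to 0.0770 to 0.196 FPKM depending on the gene and the library (3 reads, counting error only). That limit does not cover reads the counting may have left unassigned, and no source used here says how it treated such genes. The 11 with reads ranged from a mean of 0.00971 FPKM (JAL40, with 2 reads in treated library 2 and 0 elsewhere) to 0.993 FPKM (JAL8). JAL2, JAL12, JAL13, JAL14, JAL18, JAL23, JAL42 and JAL47 lay between them, as did JAL48. Of the 11, 3 had treated values wholly below the control values (JAL8, JAL14 and JAL48), against 12.9% of the 6823 genes with reads under the filter. For JAL14 and JAL48 this rests on 4 and 1 treated reads against 23 and 24 control reads. Of all 31 genes 18 lay in 6 clusters with a neighbouring member and 13 lay on their own.

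Jacalin-domain genes outside the 31 can be set beside them. The table holds 17 such rows, 11 of them tested, of which 8 fell, 0 rose and 3 did not pass by limma. Among the 8, AT1G60095 and AT3G16440 had treated means of 0.554 and 0.313 FPKM and passed the filter through their control values. For both, the filter itself favours a lower treated value. Over all genes tested 6.41% fell and 8.07% rose. For rises, 1 of the 11 had an unadjusted p under 0.05 (16.1% of all genes tested). By edgeR and DESeq2 0 rose (8.7% and 11.1%). The median log2 change of the 11 was -1.50. The nitrile-specifier protein gene NSP1, whose product steers glucosinolate breakdown, had 76.6 ± 14.9 FPKM in treated seedlings and 217 ± 36.4 FPKM in control seedlings (log2 change -1.50, limma adjusted p = 0.000825). The 3 genes left out by name, which are the best known PYK10 partners, are among the 8 that fell. PBP1 had 177 ± 21.8 FPKM in treated seedlings and 672 ± 95.6 FPKM in control seedlings (log2 change -1.91), and JAL33 and JAL34 had log2 changes of -1.58 and -1.88 (limma adjusted p = 7.55e-05, 0.00383 and 0.000241).

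Genes of the PYK10 complex and of ER bodies fell in 10 of 10 tested cases, against 6.41% of all genes tested. This list, like those below, was chosen with earlier results of these data known. The median log2 change of the 10 genes was -1.71. Their summed level was 623 to 724 FPKM in treated libraries and 2644 to 3344 FPKM in control libraries. GLL22, a lipase-like partner of PYK10, had 7.31 ± 2.27 FPKM in treated seedlings and 178 ± 44.7 FPKM in control seedlings. BGLU22, a close relative of PYK10, had 5.03 ± 1.70 FPKM in treated and 68.2 ± 23.5 FPKM in control seedlings (log2 changes -4.44 and -3.50, limma adjusted p = 4.27e-05 and 0.000283). NAI1, the transcription factor needed for ER body formation, had 10.5 ± 2.62 and 36.1 ± 3.94 FPKM in treated and control seedlings (log2 change -1.71, limma adjusted p = 0.000436). Among myrosinases and specifier proteins without a jacalin domain 2 of 7 fell and 1 rose (6.41% and 8.07% of all genes tested). The other 4 did not pass, and the median log2 change of the 7 was -0.21. Those that fell were the root myrosinase genes TGG4 and TGG5 (log2 changes -1.35 and -1.51, limma adjusted p = 0.00812 and 0.00312). They had treated means of 0.275 and 0.191 FPKM and control means of 2.24 and 2.36 FPKM. Both passed the filter through their control values, so the filter itself favours a lower treated value. The gene that rose was NSP5 (log2 change 0.93). The leaf myrosinase genes TGG1 and TGG2 had changes of -0.21 and 0.07 with limma adjusted p of 0.416 and 0.786.

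Jasmonate genes were read beside JAL35. Of 11 tested members 3 rose by limma, LOX4 (log2 change 1.84), JAZ7 (1.83) and AOC1 (1.60), against 8.07% of all genes tested. The vegetative storage protein gene VSP1 (-1.42) was the 1 that fell (6.41% of all genes tested), and 7 did not pass. At an unadjusted p under 0.05, 6 of the 11 were higher (16.1% of all genes tested). Higher calls were 4 by edgeR (8.7%) and 6 by DESeq2 (11.1%). The median log2 change of the 11 was 0.52. MYC2 is listed at 0 in every library, which may not mean that its transcript was absent.

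Root and seed storage markers were lower in treated seedlings beside the JAL genes, while most shoot markers did not pass. For the counts below, 6.41% of all genes tested fell and 8.07% rose by limma. Rises at an unadjusted p under 0.05 were 16.1% of all genes tested, with 8.7% by edgeR and 11.1% by DESeq2. Of 9 tested root markers 8 fell, 1, MYB36, did not pass and 0 rose by limma (0 also at an unadjusted p under 0.05 and by edgeR and DESeq2), with a median log2 change of -1.67. The summed level of all 12 root markers was 15.1 to 18.2 FPKM in treated libraries and 50.5 to 51.5 FPKM in control libraries. PHO1 made up most of the treated sum, with 13.9 ± 2.32 FPKM in treated and 21.1 ± 1.71 FPKM in control seedlings. CASP5 was listed at 0 in all treated libraries. CASP1, which builds the Casparian strip of the endodermis, had 0.154 ± 0.0841 FPKM in treated seedlings and 9.27 ± 0.518 FPKM in control seedlings. The root hair expansin gene EXPA18 had 0.0122 ± 0.0210 FPKM in treated and 4.10 ± 1.48 FPKM in control seedlings (log2 changes -3.16 and -2.29, limma adjusted p = 8.08e-06 and 0.000277). Of 7 shoot markers 1 fell, the guard cell potassium channel gene KAT1 (log2 change -0.64, against a median of -0.23). The summed level of the 7 was 7586 to 8699.6 FPKM in treated libraries and 7848 to 9150.5 FPKM in control libraries. RBCS1A and CAB2 made up nearly all of it, with means of 5662 and 2584 FPKM in treated and 6297 and 2176 FPKM in control seedlings. The sum therefore says little about the other shoot markers. Seed storage markers fell in 3 of 3 tested cases, with a summed level of 0.759 to 5.12 FPKM over 5 genes in treated libraries and 13.5 to 56.2 FPKM in control libraries. The largest changes were those of the storage protein genes CRA1 and CRU3 (log2 changes -3.15 and -2.39, limma adjusted p = 0.00846 and 0.0359). OLEO2 passed narrowly (limma adjusted p = 0.0470). Control values varied widely. In control libraries 1, 2 and 3 they were 24.2, 10.9 and 35.3 FPKM for CRA1 and 6.19, 1.19 and 11.9 FPKM for CRU3. CRU2 was listed at 0 in every library, with the same limit as for MYC2. The part of these markers' tissues in the JAL results was not tested.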

How the data were processed

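Messenger RNA was measured in 3 treated and 3 control libraries of Arabidopsis seedlings, grouped by the treatment label. Per the submitters' processing notes, HISAT2 2.0.5 and TAIR10 were used. No source used here gives the counting program, annotation release or use of strand. The authors deposited FPKM values for 32948 genes, and a comparison table of 2104 genes whose library columns hold a signal, which is reads over a size factor of the library. That deposited table also gives a log2 fold change, treated over control, and for each gene its p-value, under 0.05 after adjustment. All log2 fold changes in it are over 1 in size.

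FPKM multiplied by gene length came in whole steps for 100% of values, to within 0.01, and the signal columns gave the same reads, so counts were recovered. The 2-sided test was limma 3.58.1 in R 4.3.3, with lmFit and a trended, robust eBayes, on log2(FPKM + 1), for genes with a mean of at least 1 FPKM, treated minus control. Alternatives were pseudocounts of 0.1 and 0.5, no filter and a mean of at least 5 FPKM, median-ratio scaling, a replicate block, each library left out, edgeR 4.0.16 and DESeq2 1.42.0 on recovered reads. The limma step was tested on simulated data. Libraries of 1 group differed by more than sampling noise (chi-square over its degrees of freedom 12.8 to 36.5), so none was counted as a second deposit of another. This does not show that they are independent samples.

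All 31 genes matched the TAIR10.1 reference in start and end. Coding sequences and promoters come from RefSeq's TAIR10.1 genome. Protein repeats were not counted. Clusters join members at most 50 kb apart. Full values are given for each member past the threshold and for the 3 most abundant tested members not past it, and by range for the others. JAL8, JAL23, JAL36, JAL42 and JAL48 were given more fully after their values were seen, as were the sequences shown, NSP1, JAL33 (among other jacalin genes), NAI1, TGG1 and TGG2. From each gene list the text gives the counts, the genes with the largest changes and the members behind small counts. The members and lists were chosen with earlier results of these data known.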

Additional observations from a re-analysis of the deposited data

How the results depend on the processing

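Of 189 values of the 14 tested genes under alternatives, 174 kept their direction and their side of the threshold. JAL15, never called (-0.09), ranged from -0.23 to 0.18 on leaving out 1 library and turned positive without treated library 2 (0.06) or control library 1 (0.18). With a mean of at least 5 FPKM only 7 genes could be tested and 3 fell, since JAL9, JAL20, JAL41 and JAL44 left the test. Leaving out 1 library at a time gave 5 to 7 genes lower and 0 higher, and 1393 to 3417 genes past the threshold over the whole table, the 2 lowest without control library 1 (1393) and control library 2 (1580), against 2696 with all. JAL44 was also lost with a pseudocount of 0.1 FPKM (adjusted p = 0.0602). Median-ratio scaling changed no call among the 14 genes.

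Same-numbered treated and control libraries deviated together only in part (r across genes of 0.0861, 0.383 and 0.101), and treated library 1 correlated best with control library 3 (0.302), so the numbers were not taken as pairs. With the replicate block 1 gene rose (JAL5, adjusted p = 0.0359) and 6 fell, without JAL44 (0.0694), and 3256 genes passed overall. Depth limits all values of under 3 reads. Among members with reads, these occur in treated libraries of JAL8, JAL9, JAL10, JAL12, JAL13, JAL14, JAL40, JAL42, JAL47 and JAL48.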
